A study of Mus musculus with 18 samples.

Results

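The proteins of blood coagulation and complement were examined as 49 genes out of 23352 gene symbols in the liver expression tables. They were taken by name, with earlier results of these data known. By role, 28 belong to coagulation and fibrinolysis and 21 to complement. By usual source, 39 are made by hepatocytes and 10 mainly by other cells: *F8*, *Vwf*, *Plat*, *Thbd* and *Tfpi* by endothelial cells, *Plau*, *Cfp*, *C3ar1* and *C5ar1* by myeloid cells, and *Cfd* by adipocytes. Poly(A) RNA of the liver had been sequenced in 18 male mice aged 20 weeks and fed a high fat diet (HFD), 9 of them wild-type (WT) and 9 *Gpr180*KO, each in a library of its own. The knockout is constitutive and affects every tissue, not only the liver: CRISPR/Cas9 cuts in the introns around exon 6 removed that exon, which shifts the reading frame and leaves a truncated mRNA. All mice were from lines on a C57BL/6J background, and the *Gpr180*KO mice were homozygous. Sample titles come in 2 styles, called set 1 (4 WT and 4 *Gpr180*KO mice) and set 2 (5 and 5) here. The labels do not say what distinguishes the sets.

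Coagulation is a chain of serine proteases that ends in fibrin. Tissue factor with factor VII starts it, factors VIII, IX and XI amplify it, and factor X with factor V turns prothrombin into thrombin, which cuts fibrinogen. Plasmin, made from plasminogen, dissolves the clot. Complement is a related cascade that converges on C3, releases the anaphylatoxins C3a and C5a, and ends in the C5b-9 pore. The liver is the main source of most of these plasma proteins, while their cell surface partners, such as thrombomodulin and the anaphylatoxin receptors, belong to endothelial and myeloid cells.

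Upstream sequences are given for 6 members. *F7* and *C3ar1* differed between the genotypes, *F11* and *C8b* did so once the title set was in the fit, and *Fga* and *Fgb* encode chains of the most abundant product. Each run holds the 250 bases before the start used in the RefSeq promoter table (GRCm38.p6), 5′ to 3′ on the strand of the gene. The full RefSeq span of *F7* begins further upstream, at chr8:13025506, so its run lies within that span, and the span of *F11* reaches chr8:45262055, within its run. Capitals mark matches to any of 5 short motifs searched on both strands: HNF1 (GTTAAT), HNF4 (AAAGTCCA), C/EBP (TTGCNNAA), STAT (TTCNNNGAA) and NF-kB.
*F7* (chr8:13025784-13026033, plus strand): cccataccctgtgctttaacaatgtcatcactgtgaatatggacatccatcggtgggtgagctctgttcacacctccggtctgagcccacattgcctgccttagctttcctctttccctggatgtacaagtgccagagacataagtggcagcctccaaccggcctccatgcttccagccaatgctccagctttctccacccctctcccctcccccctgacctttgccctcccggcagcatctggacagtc
*F11* (chr8:45262032-45262281, minus strand): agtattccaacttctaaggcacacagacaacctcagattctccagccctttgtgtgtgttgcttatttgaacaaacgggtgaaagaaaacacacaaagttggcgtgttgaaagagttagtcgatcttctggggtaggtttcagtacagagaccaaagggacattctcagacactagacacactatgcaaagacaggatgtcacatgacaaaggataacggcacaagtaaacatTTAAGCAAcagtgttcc
*C8b* (chr4:104766067-104766316, plus strand): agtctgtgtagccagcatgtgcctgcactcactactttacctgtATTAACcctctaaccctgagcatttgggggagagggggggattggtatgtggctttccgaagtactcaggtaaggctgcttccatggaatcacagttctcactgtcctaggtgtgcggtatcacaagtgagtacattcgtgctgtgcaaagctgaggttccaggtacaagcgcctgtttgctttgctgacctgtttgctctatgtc
*C3ar1* (chr6:122856158-122856407, minus strand): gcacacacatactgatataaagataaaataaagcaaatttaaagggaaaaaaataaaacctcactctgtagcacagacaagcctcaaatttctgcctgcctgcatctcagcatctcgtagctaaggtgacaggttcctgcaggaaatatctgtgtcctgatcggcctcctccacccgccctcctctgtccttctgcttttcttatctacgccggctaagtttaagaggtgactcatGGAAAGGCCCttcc
*Fga* (chr3:83025903-83026152, plus strand): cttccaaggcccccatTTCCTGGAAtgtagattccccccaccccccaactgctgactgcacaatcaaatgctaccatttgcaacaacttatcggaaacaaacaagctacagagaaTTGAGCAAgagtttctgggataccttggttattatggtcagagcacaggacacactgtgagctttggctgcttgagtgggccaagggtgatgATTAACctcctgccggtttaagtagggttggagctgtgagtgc
*Fgb* (chr3:83049864-83050113, minus strand): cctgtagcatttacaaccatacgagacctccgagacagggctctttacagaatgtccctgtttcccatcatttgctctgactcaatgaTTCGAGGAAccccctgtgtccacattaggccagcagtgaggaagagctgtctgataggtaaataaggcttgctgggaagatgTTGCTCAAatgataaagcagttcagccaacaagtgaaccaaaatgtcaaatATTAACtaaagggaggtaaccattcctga

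The RefSeq promoter table held 35 of the 49 members. *Fga* and *Fgb* each had 1 match to HNF1, C/EBP and STAT, *C8b* had an HNF1 match, *F11* a C/EBP match and *C3ar1* an NF-kB match. The C/EBP match of *Fgb* lay on the strand of the gene. Apart from STAT, the other matches named lay on the opposite strand. The *F7* window held no match. Matches did not overlap in the windows shown, and the STAT motif, which reads the same on both strands, was counted once. An HNF1 match was present before 9 of the 35 members (25.7%), against 6.43% of 32851 promoter windows of the same length. C/EBP was matched in 7 members (20.0%, against 9.56% of windows), STAT in 6 (17.1% against 7.02%), NF-kB in 1 (2.9% against 1.41%) and HNF4 in 0 (against 1.01%). A match describes letters only and is not evidence that a factor binds there.

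Several members lie next to each other (mm10). *F7* (chr8:13026034-13035809), *F10* (chr8:13037308-13056676) and *Proz* (chr8:13060908-13075006) follow each other with gaps of 1498 and 4231 bases. The fibrinogen genes *Fgg*, *Fga* and *Fgb* span chr3:83007896-83049790. *C8b* and *C8a* are 11131 bases apart on chromosome 4, *F11* and *Klkb1* 7419 bases apart on chromosome 8, and *Cfb* ends 87 bases before *C2* on chromosome 17.

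The paper gives only an approximate range of reads per sample. Totals of single libraries are not listed in the tables, so their depth is given as a ratio between libraries. This relative depth, estimated from lowly expressed genes with the deepest library at 100%, was 60.8% to 100% (median 74.9%) in WT and 44.3% to 93.5% (median 68.3%) in *Gpr180*KO mice. *Gpr180* itself was 4.46 to 9.24 FPKM (fragments per kilobase of transcript, relative to library size) in WT and 0.876 to 1.99 FPKM in *Gpr180*KO mice, so every label held. Summed FPKM of 10 hepatocyte markers was 29546 to 39033 in WT and 33827 to 66612 in *Gpr180*KO livers, where KO51 held the highest value and the next was 40955. The median log2 difference of the 10835 genes tested was -0.13 as deposited and -0.01 with median-of-ratios scaling. Library KO51 (*Gpr180*KO, set 2) stood apart. Its FPKM values summed to 718746, against 554796 to 629067 in the other libraries, and it was an outlier for 10 members. Across 46 members, its log2 difference from the median of the other *Gpr180*KO libraries had a Spearman rho of -0.77 with transcript length, against -0.222 to 0.256 for the other 17 libraries. Values without KO51 are given beside the members for which it was an outlier and beside several others.

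**Figure D1:**
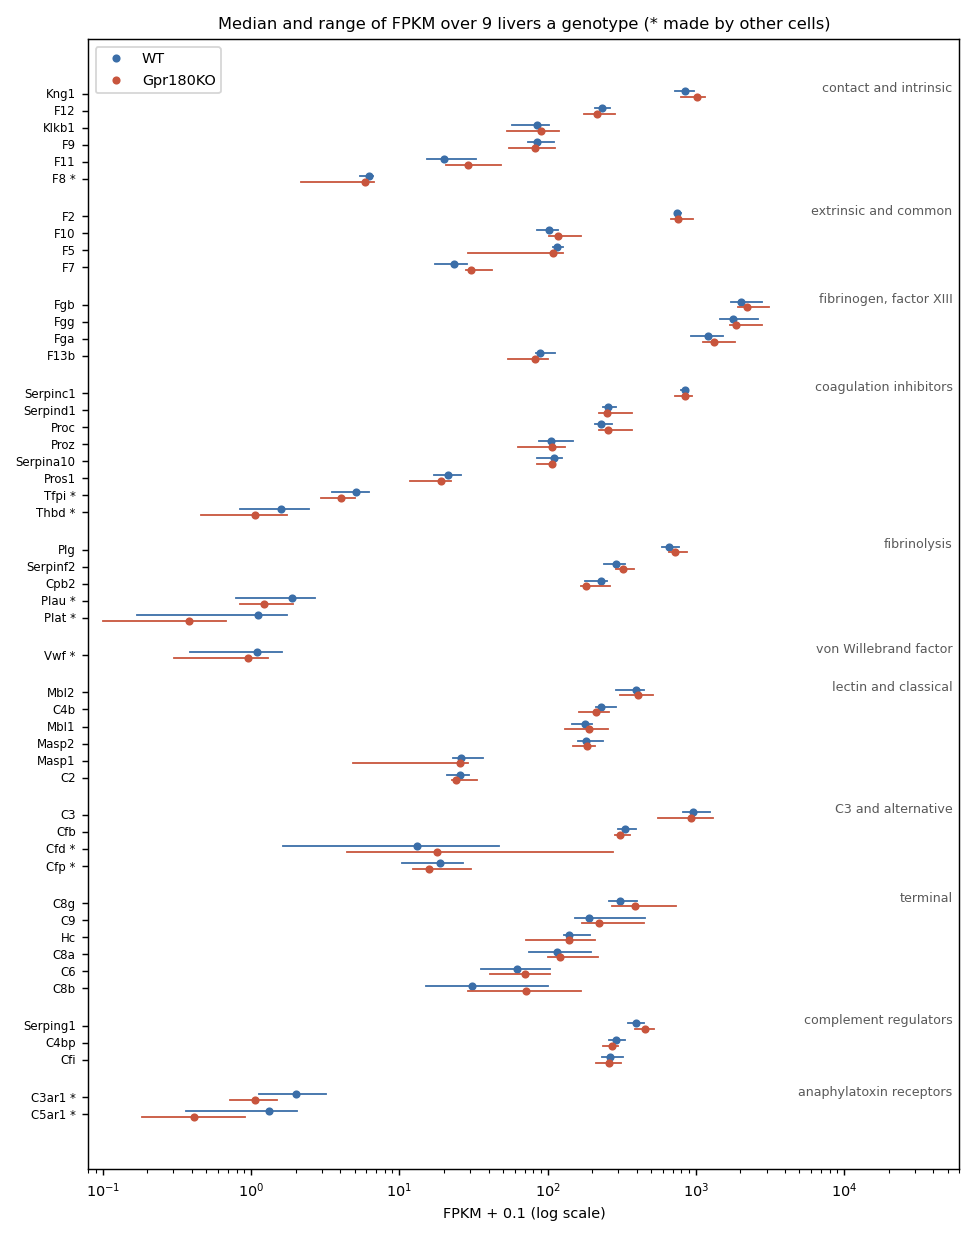
FPKM + 0.1 (horizontal, log scale) of the 49 members, grouped by role. Dots are medians and lines the range over 9 livers of each genotype; an asterisk marks members made mainly by cells other than hepatocytes. Fibrinogen chains lie highest, at group medians of 1212 to 2222 FPKM, and *Vwf*, *Plat*, *C5ar1*, *Thbd*, *Plau* and *C3ar1* lowest.

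Together the 49 members accounted for 2.35% to 3.05% (median 2.55%) of summed FPKM in WT and 2.21% to 3.25% (median 2.54%) in *Gpr180*KO livers. *Fgb* was the highest, followed by *Fgg* and *Fga*. *C3* and *Kng1* came next with the 3 abundant plasma proteins antithrombin (*Serpinc1*), prothrombin (*F2*) and plasminogen (*Plg*), all with group means between 684 and 974 FPKM. The lowest hepatocyte-made member was *Pros1*, with means of 21.6 FPKM in WT and 17.99 FPKM in *Gpr180*KO livers. Mice of the same genotype differed least for *Serpinc1* and *F2*, with a within-group SD of 0.09 and 0.11 on the log2 scale, and most for *Cfd* (1.83) and *C8b* (1.07).

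Between the genotypes, 1 member was higher and 1 lower in *Gpr180*KO livers. The 46 members with a mean of at least 1 FPKM were tested with limma on log2(FPKM + 0.1), and *Vwf*, *Plat* and *C5ar1* were not. *F7* was higher (1 of 46, against 0.452% of all genes tested that were called higher) and *C3ar1* was lower (1 of 46, against 4.28% called lower). At an unadjusted p under 0.05, 5 members were higher (10.9%, against 2.54% of all genes) and 5 lower (10.9%, against 19.6%). The median log2 difference of the members was 0.0025, that of the 26 tested coagulation members 0.01 and that of the 20 complement members -0.02, each above the median of all genes. Hepatocyte-made members had a median of 0.06 (39 genes, 23 with a higher and 16 with a lower mean on the log2 scale) and members from other cells a median of -0.34 (7 genes, 6 with a lower mean). Of all genes tested, 76.9% had a lower mean on that scale, which is meant wherever such counts are given. In whole liver, fewer cells of a type cannot be told apart from less RNA per cell.

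Median-of-ratios scaling moved these summaries but not the calls. After it, *F7* remained higher (1 of 46, against 1.04% of genes) and *C3ar1* lower (1 of 46, against 1.55% of genes), while the number of members with a higher mean went from 24 to 35 of 46 (52.2% to 76.1%) and the share of all genes with a lower mean from 76.9% to 51.0%. The median of hepatocyte-made members was then 0.18 and that of members from other cells -0.22. With the title set as a block, 3 members were higher (*F7*, *F11* and *C8b*, against 1.13% of genes) and 2 lower (*C3ar1* and *Thbd*, against 9.52% of genes). *Thbd* reached the minimum mean of 1 FPKM only through the WT livers. With values rescaled to the same total in every library (TPM), *Plat* was lower too (-1.60, adjusted p = 0.0483). TPM values were larger than FPKM, so the same minimum of 1 admitted *Plat*, with means of 0.914 FPKM in WT and 0.262 FPKM in *Gpr180*KO livers. It was the WT livers that brought it past the minimum, and 656 of 11868 genes were called lower in that fit. With the block and median-of-ratios scaling together, *Plg*, *Serpinf2* and *Serping1* were also higher and *Thbd* did not pass. That fit called 248 of 10814 genes higher and 386 lower.

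**Figure D2:**
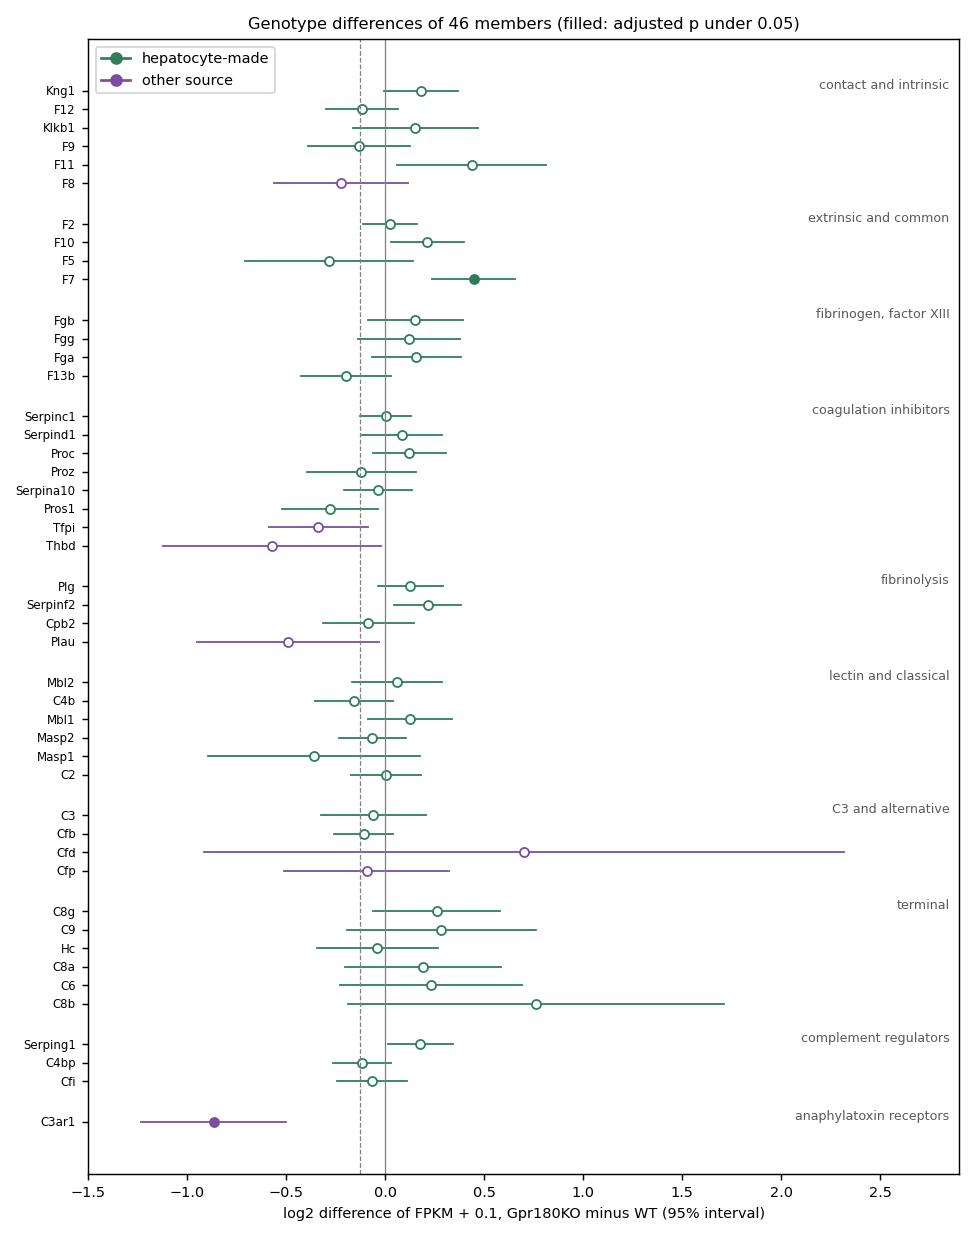
Log2 difference (*Gpr180*KO minus WT, with its 95% interval) of log2(FPKM + 0.1) for 46 members, 9 livers per genotype. Filled dots passed an adjusted p of 0.05 in limma (*F7* and *C3ar1*), colours give the usual source, the solid line is 0 and the dashed line the median of all genes tested (-0.13).

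*F7* encodes factor VII, which binds tissue factor to start coagulation. Its FPKM was 17.3 to 28.4 (median 23.2) in WT and 28.1 to 42.2 (median 30.3) in *Gpr180*KO livers, with means of 23.4 ± 3.77 and 31.8 ± 4.34 (SD, n = 9). In 8 of 9 *Gpr180*KO livers *F7* exceeded the highest WT liver, and the remaining liver lay just under that value. The log2 difference was 0.45 (SE 0.10, adjusted p = 0.0212 by limma). Without KO51, which held the highest value, it was 0.39 (adjusted p = 0.0189). Differences within set 1 and set 2 were 0.29 and 0.58.

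The gene next to it, *F10*, encodes factor X. Its FPKM was 85.3 to 116.7 (median 101.5) in WT and 102.9 to 168.4 (median 117.1) in *Gpr180*KO livers, a log2 difference of 0.21 (SE 0.09, adjusted p = 0.167), or 0.15 without KO51. All 9 *Gpr180*KO livers lay above the WT median, but the groups overlapped and the test was not passed. *Proz*, further along the same cluster and encoding a cofactor for factor X inhibition, had 87.4 to 147.6 FPKM in WT and 63.4 to 130.4 FPKM in *Gpr180*KO livers, with a log2 difference of -0.12. That difference became -0.03 without KO51, the lowest liver. Within each liver, *F7* stood at 0.191 to 0.269 of the FPKM of *F10* in WT and at 0.251 to 0.288 in *Gpr180*KO mice. Those ranges overlap.

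Prothrombin, factor V and the contact factors did not pass the test. *F2* had 733.4 to 790.3 FPKM in WT and 681 to 952.5 FPKM in *Gpr180*KO livers (log2 difference 0.02, 95% interval -0.11 to 0.16). *F5*, the cofactor of factor X, had 108.7 to 126.1 FPKM in WT and 93.1 to 127.2 FPKM in 8 *Gpr180*KO livers, with KO51 at 29.2 FPKM. The difference of -0.29 on the log2 scale became -0.07 without KO51. *Kng1*, the kininogen that carries the contact enzymes, had a log2 difference of 0.18 (SE 0.09, adjusted p = 0.248). Reads of *Kng1* and its close relative *Kng2* may not have been separable.

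Factor XI (*F11*) amplifies thrombin formation. Its FPKM was 15.3 to 32.7 (median 20.0) in WT and 20.4 to 48.5 (median 29.1) in *Gpr180*KO livers. All *Gpr180*KO livers exceeded the WT median, yet 6 of 9 lay within the WT range. The log2 difference was 0.44 (SE 0.18), with an adjusted p of 0.165, and 0.0335 when the title set was a block. *Klkb1* (prekallikrein, beside *F11*), *F12* and *F9* had log2 differences of 0.15, -0.12 and -0.13, none past the test. Without KO51 they were 0.25, -0.17 and -0.06. *F8*, made by endothelial cells, had 5.38 to 6.60 FPKM in WT and 4.44 to 6.61 FPKM in 8 *Gpr180*KO livers, with KO51 at 2.06 FPKM. Its log2 difference was -0.23 with KO51 and -0.06 without it.

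Of the 3 fibrinogen chains, *Fgg* and *Fgb* kept to similar proportions in every liver, while *Fga* varied more against *Fgb*. *Fgb* had 1719 to 2782 FPKM in WT and 1919 to 3125 FPKM in *Gpr180*KO livers, a log2 difference of 0.15 (SE 0.12, adjusted p = 0.441). *Fgg* stood at 0.839 to 0.951 of *Fgb* in WT and at 0.832 to 0.916 in *Gpr180*KO livers, and *Fga* at 0.480 to 0.704 and 0.458 to 0.668. The ranges of both ratios overlapped between the genotypes. *Fga* and *Fgg* had log2 differences of 0.16 and 0.12. *F13b*, the carrier subunit of the fibrin cross-linking factor XIII, had a difference of -0.20 with KO51, its lowest liver at 54.4 FPKM, and -0.12 without it.

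Among the coagulation inhibitors, 0 of 8 passed the test, and the 2 endothelial members had the most negative differences. *Serpinc1*, which encodes antithrombin, had 800.9 to 860.9 FPKM in WT and 726.9 to 939.2 FPKM in *Gpr180*KO livers, and its log2 difference was 0.0026 (95% interval -0.13 to 0.13). *Serpind1*, *Proc* and *Serpina10* lay between -0.04 and 0.12. *Proc* was highest in KO51 at 373.8 FPKM, against 221 to 271 FPKM in the other *Gpr180*KO livers, and its difference was 0.05 without that liver.

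*Tfpi* blocks the tissue factor and factor VII complex. Its FPKM was 3.42 to 6.16 (median 4.99) in WT and 2.88 to 4.96 (median 3.96) in *Gpr180*KO livers. All 9 *Gpr180*KO livers lay below the WT median, and 7 of 9 within the WT range. The log2 difference was -0.34 (SE 0.12, adjusted p = 0.104), or -0.28 without KO51, its lowest liver. *Thbd*, the endothelial thrombin receptor thrombomodulin, had 0.746 to 2.35 FPKM (median 1.49) in WT and 0.358 to 1.64 FPKM (median 0.965) in *Gpr180*KO livers. Its log2 difference was -0.57 (SE 0.26, adjusted p = 0.207), or -0.44 without KO51. It passed only with the title set as a block (adjusted p = 0.0492). Its means were 1.43 FPKM in WT and 0.941 FPKM in *Gpr180*KO livers, so only the WT livers brought it past the minimum of 1 FPKM. *Pros1*, the cofactor of activated protein C, had a difference of -0.28 (SE 0.12, adjusted p = 0.163), or -0.21 without KO51.

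Of the fibrinolysis genes, the 2 plasminogen activators were lower in mean in *Gpr180*KO livers. *Plat*, tissue plasminogen activator, had 0.0704 to 1.66 FPKM (median 1.01) in WT and 0 to 0.581 FPKM (median 0.281) in *Gpr180*KO livers. Every *Gpr180*KO liver lay below the WT median, but the lowest WT liver, W157, lay below 8 of them. With a minimum mean of 0.1 FPKM, which admits *Plat*, its log2 difference was -1.41 (SE 0.39, adjusted p = 0.0386, with 5.54% of 14016 genes called lower), and with no minimum the adjusted p was 0.0553. *Plau*, urokinase, had 0.689 to 2.60 FPKM (median 1.79) in WT and 0.747 to 1.81 FPKM (median 1.12) in *Gpr180*KO livers, with a log2 difference of -0.49 (SE 0.22, adjusted p = 0.194).

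W157 was the lowest WT liver for *Plau*, *Tfpi*, *Thbd*, *Plat*, *Vwf*, *C3ar1* and *C5ar1*. Without it, *Plau* (-0.63, adjusted p = 0.0466) and *Tfpi* (-0.40, adjusted p = 0.0297) passed too. Over all genes, 843 of 10851 were then called lower, against 464 of 10835 with all livers. The substrate *Plg* had a log2 difference of 0.13 (adjusted p = 0.344). *Serpinf2*, the plasmin inhibitor, had 238.9 to 332.7 FPKM in WT and 289.3 to 385.9 FPKM in *Gpr180*KO livers, all 9 above the WT median, with a difference of 0.21 (SE 0.08, adjusted p = 0.126). *Cpb2*, which slows fibrin lysis, had a difference of -0.09. *Vwf*, von Willebrand factor, was 0.285 to 1.52 FPKM in WT and 0.204 to 1.21 FPKM in *Gpr180*KO livers, overlapping throughout.

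**Figure D3:**
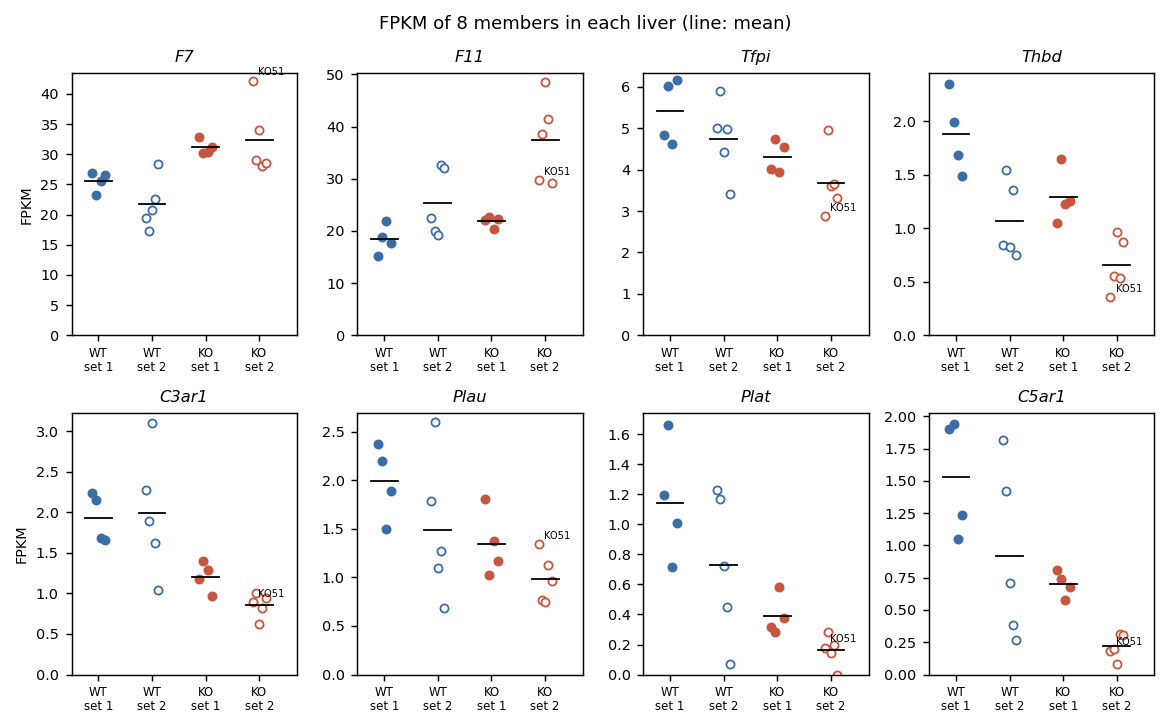
FPKM (vertical, linear axis from 0) of 8 members in each liver, by genotype and title set (set 1 filled, set 2 open); lines are means. *F7* was 28.1 to 42.2 FPKM in *Gpr180*KO and 17.3 to 28.4 FPKM in WT livers, and *C3ar1* 0.627 to 1.40 against 1.04 to 3.11 FPKM.

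The complement member that differed was a receptor. *C3ar1* encodes the C3a receptor of macrophages and other myeloid cells. Its FPKM was 1.04 to 3.11 (median 1.90) in WT and 0.627 to 1.40 (median 0.972) in *Gpr180*KO livers, with means of 1.96 ± 0.576 and 1.01 ± 0.239 (SD, n = 9). Of the *Gpr180*KO livers, 6 lay below the lowest WT liver and all 9 below the WT median. The log2 difference was -0.87 (SE 0.18, adjusted p = 0.015 by limma), -0.63 within set 1 and -1.05 within set 2.

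The C5a receptor gene *C5ar1* had 0.264 to 1.94 FPKM (median 1.23) in WT and 0.0851 to 0.811 FPKM (median 0.314) in *Gpr180*KO livers. All 9 *Gpr180*KO livers lay below the WT median and 3 below the lowest WT liver. With the minimum mean of 0.1 FPKM its log2 difference was -1.25 (SE 0.37, adjusted p = 0.0531). Of 10 tested markers of Kupffer cells and macrophages, 3 were lower (*Cd68*, *Ccr2* and *Cd14*), where 4.28% of all genes were, and 0 higher. *Ccr2* reached the minimum mean of 1 FPKM only through the WT livers. It was 0.476 to 5.01 FPKM there and 0.479 to 1.54 FPKM in *Gpr180*KO livers. Of the 10 markers, 8 had a lower mean, and the median log2 difference was -0.22. The list's summed FPKM was 181 to 470 in WT and 216 to 313 in *Gpr180*KO livers. *Clec4f*, a marker of resident Kupffer cells, had means of 43.9 and 48.1 FPKM, and with *Timd4* (4.18 and 4.28 FPKM) it was one of the 2 with a positive difference. For endothelial cells, 0 of 12 markers passed in either direction and 12 had a lower mean, with summed FPKM of 140 to 225 and 128 to 201. Of 12 markers of stellate cells and fibroblasts, 6 were lower and 12 had a lower mean, with a median of -0.75 and summed FPKM of 155 to 317.9 in WT and 96.3 to 158 in *Gpr180*KO livers. The 2 neutrophil markers tested of 8, *S100a8* and *S100a9*, had differences of -1.07 and -1.04, neither past the test, and the list summed to 3.23 to 37.9 and 3.66 to 10.2 FPKM. After median-of-ratios scaling the markers with a lower mean were 7 of 10 for Kupffer cells and macrophages (2 past the test), 7 of 12 for endothelial cells, 11 of 12 for stellate cells and fibroblasts (6 past the test) and 2 of 2 for neutrophils. The part of these cells in the values of receptors and other members made outside hepatocytes was not tested.

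Properdin (*Cfp*), a myeloid stabiliser of the alternative pathway, had 10.3 to 27.0 FPKM in WT and 12.2 to 18.1 FPKM in 8 *Gpr180*KO livers, with KO51 at 30.2 FPKM. Its log2 difference was -0.09 with KO51 and -0.21 without it. *Cfd*, encoding the adipocyte protease adipsin (factor D), spread the most of all members. It was 1.54 to 46.7 FPKM in WT and 4.36 to 97.1 FPKM in 8 *Gpr180*KO livers, and 277.7 FPKM in KO51. Its log2 difference was 0.70 (95% interval -0.91 to 2.32), or 0.23 without KO51. Of 8 adipocyte markers, 4 were tested, 0 passed and all 4 had negative log2 differences, with summed FPKM of 40.8 to 168 in WT and 29.3 to 161 in *Gpr180*KO livers. KO51 held the highest mean log2 level of the list, but its summed FPKM of 161 lay under the highest WT sum. It was highest for *Retn* (1.26 FPKM, against at most 0.172 FPKM elsewhere), *Cidea* (48.2 FPKM) and *Fabp4* (65.9 FPKM). It was not highest for *Cidec* (38.9 FPKM, against up to 75.7 FPKM in WT) or *Lpl* (6.91 FPKM, against up to 13.8 FPKM in WT). The defining marker *Plin1* was 0 in all 18 libraries, *Adipoq* did not exceed 0.0897 FPKM and *Lep* 0.0134 FPKM. The part of adipocytes in *Cfd* was not tested.

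The central component *C3* had 821.8 to 1252 FPKM in WT and 796.9 to 1300 FPKM in 8 *Gpr180*KO livers, with KO51 at 557.8 FPKM. The log2 difference of *C3* was -0.06 (95% interval -0.33 to 0.21), and 0.03 without KO51. *Cfb*, the alternative pathway protease, had a difference of -0.11 (adjusted p = 0.376).

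Lectin and classical pathway genes were close between the genotypes. *Mbl2* and *Mbl1*, mannose-binding lectins, had log2 differences of 0.06 and 0.13, and *Masp2*, their protease, -0.07. *Masp1* had 23.0 to 36.7 FPKM in WT and 22.0 to 29.1 FPKM in 8 *Gpr180*KO livers, with KO51 at 4.75 FPKM, so its difference of -0.36 became -0.09 without KO51. *C4b* had a difference of -0.16 (adjusted p = 0.334), or -0.11 without KO51, though its reads may be shared with the near-identical *C4a*. *C2* was 0.0024 (95% interval -0.17 to 0.18). Of the regulators, *Serping1*, the C1 inhibitor that also restrains contact activation, had 349.4 to 449.4 FPKM in WT and 386.2 to 520 FPKM in *Gpr180*KO livers, with 5 of 9 above the highest WT liver. On the log2 scale it was 0.18 higher (SE 0.08, adjusted p = 0.194). *C4bp* and *Cfi*, which inactivate C4 and C3 fragments, were at -0.12 and -0.07.

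Terminal pathway genes had higher means in *Gpr180*KO livers for 5 of 6 members, with a median log2 difference of 0.24, and 0 of 6 passed without a block. *C8b*, which encodes the beta chain of C8, was 15.1 to 101.1 FPKM (median 31.0) in WT and 29.1 to 167 FPKM (median 71.0) in *Gpr180*KO livers, a log2 difference of 0.76 (SE 0.46, adjusted p = 0.332). Much of its spread lay between the title sets. In set 1, *C8b* was 15.1 to 26.0 FPKM in WT and 29.1 to 38.3 FPKM in *Gpr180*KO livers, with no overlap. In set 2 it was 31.0 to 101.1 and 71.0 to 167 FPKM, overlapping. With the set as a block the adjusted p was 0.0317, and in set 1 alone 0.0217.

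The other terminal members did not pass in either fit. *C9*, the pore-forming unit, had a log2 difference of 0.28 (SE 0.23, adjusted p = 0.463), *C6* 0.23, *C8a* 0.19 and *C8g* 0.26, or 0.14 for *C8g* without KO51, where it reached 736.2 FPKM. *Hc*, which encodes C5, was -0.04 with KO51 (71.8 FPKM) and 0.08 without it. The 3 chains of C8 were unequal in RNA per length. *C8b* stood at 0.0384 to 0.378 of *C8g* in WT and at 0.0691 to 0.612 in *Gpr180*KO livers, and at 0.190 to 0.684 and 0.277 to 0.919 of *C8a*.

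More members passed between the title sets than between the genotypes. In a comparison chosen after the data were seen, with genotype in the fit, 11 of 46 members were higher in set 2 (against 3.78% of all genes) and 5 lower (against 19.1%). *C8b* led, with a log2 difference of 1.81 (SE 0.22, adjusted p = 8e-05) between set 2 and set 1. Of the terminal genes, *C6* (0.72), *C9* (0.64) and *C8a* (0.60) were higher too. *F11* (0.59), *Cpb2* (0.37), *Klkb1* (0.36), *Fgb* (0.34), *Fgg* (0.34), *Plg* (0.19) and *Cfd* (2.07) made up the rest. Those lower in set 2 were *Thbd* (-0.86), *C4b* (-0.32), *Mbl2* (-0.29), *Cfb* (-0.22) and *C4bp* (-0.17). For 0 members did the genotype difference between the sets pass an adjusted p of 0.05 in limma, with a lowest adjusted interaction p of 0.631 over 46 members.

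**Figure D4:**
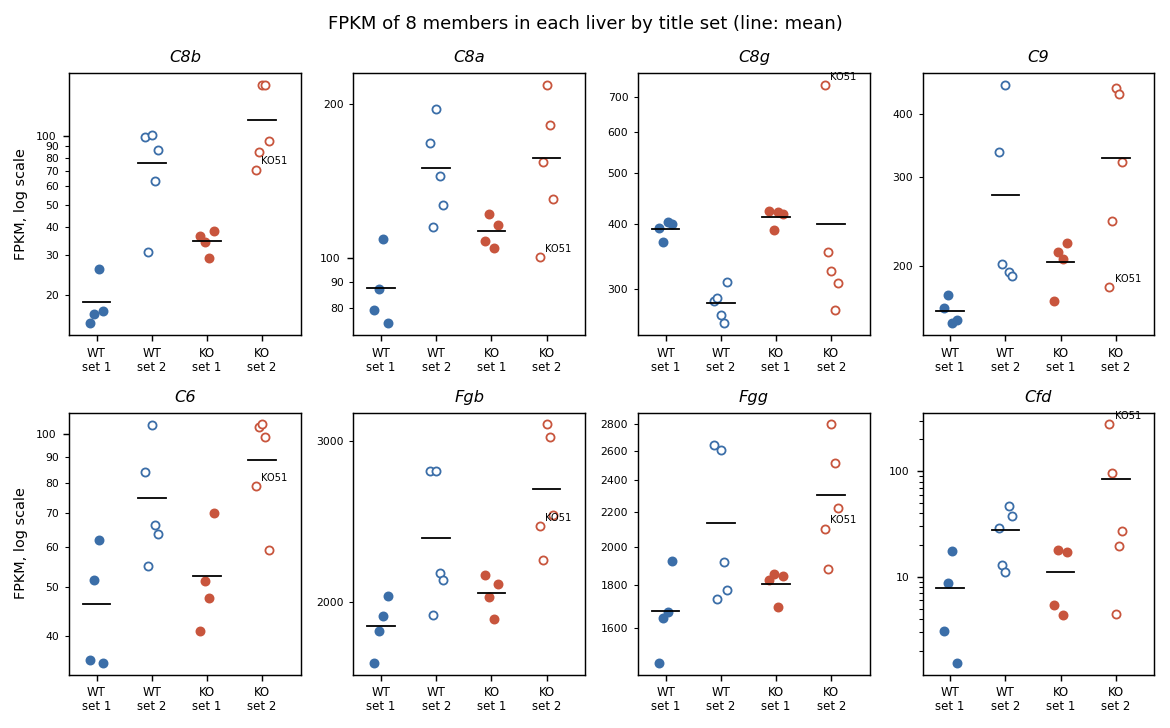
FPKM (vertical, log scale) of 8 members in each liver, by genotype and title set (set 1 filled, set 2 open); lines are means. *C8b*, *C8a*, *C9*, *C6*, *Fgb* and *Fgg* were higher in set 2, and *C8g* of KO51 lies at 736.2 FPKM.

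In KO51 the deviation from the other *Gpr180*KO livers followed transcript length. It lay below all 8 other *Gpr180*KO livers for 16 members, with a median transcript length of 3846 bases, and above all of them for 10 members, with a median length of 1748 bases. *F8*, *F5* and *Masp1* were at 35.2%, 26.6% and 18.5% of the median of the other *Gpr180*KO livers, and *C8g* and *Cfp* at 199% and 194%. The shortest member, *Cfd* (922 bases), was at 1584%. Over 9885 tested genes the rho with length was -0.756 in KO51 and between -0.212 and 0.294 in the other libraries. These points are genes of the same library and are not independent.

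**Figure D5:**
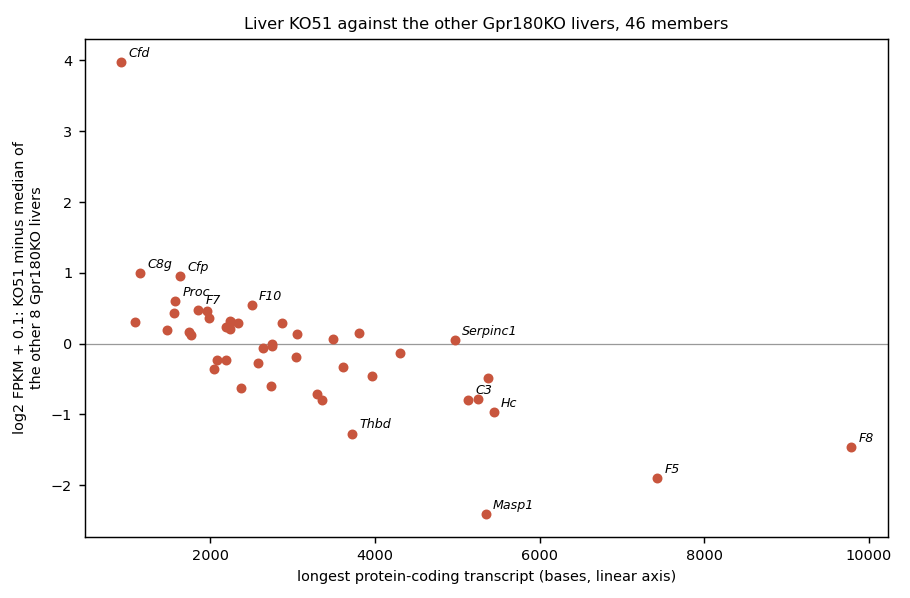
Difference of log2(FPKM + 0.1) between liver KO51 and the median of the other 8 *Gpr180*KO livers (vertical) against the longest protein-coding transcript in bases (horizontal, linear) for 46 members. Points fall from left to right, with a Spearman rho of -0.77.

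Other genes of the same pathways were counted from lists. Of 23 further coagulation genes, 15 were tested, 3 were lower in *Gpr180*KO livers, where 4.28% of all genes were, and 0 higher. *F2r*, the thrombin receptor, had means of 13.6 and 8.62 FPKM (log2 difference -0.66, adjusted p = 0.0169). *Thbs1*, thrombospondin, had means of 1.68 and 0.356 FPKM (-1.81, adjusted p = 0.0132), and *Vkorc1l1*, a vitamin K epoxide reductase, 16.9 and 12.1 FPKM (-0.50, adjusted p = 0.0393). *Thbs1* reached the minimum mean of 1 FPKM only through the WT livers. After median-of-ratios scaling 14 were tested and 1 was lower: *F2r* kept an adjusted p of 0.0487, *Vkorc1l1* had 0.102 and *Thbs1* fell under the minimum mean. Of 30 further complement genes, 21 were tested and 0 passed in limma. At an unadjusted p under 0.05, 3 were lower and 1 higher, where 19.6% of all genes were lower and 2.54% higher. The lowest p belonged to *Vtn*, vitronectin, which binds the terminal complex (0.26, adjusted p = 0.0622), and to the complement receptor subunit *Itgb2* (-0.70, adjusted p = 0.0828). *Vtn* passed after median-of-ratios scaling (adjusted p = 0.0455) and with the set as a block (0.0371), and with the block *Itgb2* (0.0265) and *Cd93* (0.0202) were lower too.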

How the data were processed

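Poly(A) RNA of 18 mouse livers was measured, with 1 table of FPKM values per mouse. The FPKM values were computed and deposited by the authors, and the submitters' processing notes name TopHat and the build GRCm38 (mm10). The program that gave FPKM and its gene annotation are not given in the sources used here. Groups were taken from the genotype label. Rows of a symbol were summed, and 24 genes with 190 failed values were left out, none of them members. The interval columns of the tables were not used, since only 368 of 882 member values lay inside their own interval. The tables used hold no read totals, so no interval for counting error was given. Positions are from the tables, counted from 1 at the first base.

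Genes with a mean of at least 1 FPKM were compared in R 4.3.3 with limma 3.58.1 (eBayes with trend) on log2(FPKM + 0.1). All 10835 p-values were adjusted together by Benjamini-Hochberg, with a threshold of 0.05. Fold changes on this scale understate those of low genes. The members and lists were chosen with earlier results of these data known, and lists were described without a test. All 49 members were accounted for; values were given for members past the threshold, the 5 with the lowest p in coagulation and in complement, the highest of each role, outliers and all 10 made by other cells. Transcript lengths were the longest protein-coding transcript of GENCODE vM21, which is on GRCm38, and upstream sequences came from RefSeq. Steps were tested on simulated data. Alternatives were other pseudocounts, minimum means, scalings, blocks, single sets, left-out mice and weights. The set comparison and median-of-ratios scaling with the set as a block were chosen after seeing the data.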

Additional observations from a re-analysis of the deposited data

Results flagged for a closer look

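Of 98 groups of 9 livers (49 members in each genotype), 13 held an outlier on the log2(FPKM + 0.1) scale, where chance flags about 1 in 20 groups, or 4.9 of 98. The gap of the highest or lowest liver to its neighbour, as a share of the group's range, exceeded Dixon's 95% critical value. KO51 was that liver for 10 members. It was lowest for *F5* (29.2 FPKM), *F8* (2.06 FPKM), *F13b* (54.4 FPKM), *Hc* (71.8 FPKM) and *Masp1* (4.75 FPKM). It was highest for *F7* (42.2 FPKM), *F10* (168 FPKM), *Proc* (374 FPKM), *C8g* (736 FPKM) and *Cfp* (30.2 FPKM). The remaining 3 were *Serpina10* in KO52 (84.6 FPKM, lowest), *C2* in KO53 (33.4 FPKM, highest) and *Plat* in the WT liver W157 (0.0704 FPKM, lowest).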

How the results depend on the processing

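*F7* stayed higher and past the threshold under 31 of 32 alternatives and *C3ar1* lower under 30 of the 31 that tested it, leave-one-out fits included. In set 2 alone, with 10 libraries, *F7* was 0.58 (adjusted p = 0.127) and *C3ar1* -1.05 (adjusted p = 0.108). Over all genes, the fit of set 2 alone called 1 of 10725, against 693 of 10907 in set 1 alone. The number of members called lower, 1 as reported, was 2 with a minimum mean of 0.1 FPKM, with TPM, with the set as a block, in set 1 alone and with weights per library, and 0 with a minimum mean of 5 FPKM and in set 2 alone. The number called higher, also 1, was 3 with the set as a block and in set 1 alone, 0 in set 2 alone and 6 with the block and median-of-ratios scaling together. Leaving out each mouse gave 1 to 3 called lower, 3 without W157, and 1 called higher throughout. Over all genes, calls went from 464 lower and 49 higher to 168 and 112 after median-of-ratios scaling and to 1031 and 122 with the block. They were 386 lower and 248 higher of 10814 genes with both together. Without W157 they were 843 and 77 of 10851 genes, and with weights per library 1161 and 170 of 10835. Calls were 776 lower of 14016 genes with a minimum mean of 0.1 FPKM and 577 lower and 116 higher of 10907 in set 1 alone.

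Medians moved with scaling. The coagulation median of 0.01 became 0.14 with median-of-ratios and 0.11 with 75th percentile scaling. The complement median of -0.02 and the hepatocyte-made median of 0.06 became 0.11 and 0.18 with median-of-ratios scaling. The block with that scaling gave the same medians, 0.14, 0.11 and 0.18.

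Members near 0 changed sign, none past the test. With median-of-ratios scaling, with or without the block, *C3* became 0.065, *C4bp* 0.0071, *Cfb* 0.014, *Cfi* 0.055, *Cfp* 0.029, *Cpb2* 0.038, *F12* 0.0068, *Hc* 0.084, *Masp2* 0.058, *Proz* 0.0030 and *Serpina10* 0.087. With 75th percentile scaling, *C3* became 0.034, *Cfi* 0.024, *Cpb2* 0.0070, *Hc* 0.053, *Masp2* 0.028 and *Serpina10* 0.056. With TPM, *C2* became -0.035, *F2* -0.013 and *Serpinc1* -0.035. In set 1 alone, *C2* became -0.18, *C3* 0.030, *F2* -0.015, *Hc* 0.028, *Masp1* 0.011, *Proz* 0.073 and *Serpinc1* -0.035. In set 2 alone, *Cfp* became 0.078, *Klkb1* -0.0045 and *Serpina10* 0.021. With weights per library, *C2* became -0.096, *F2* -0.030, *Hc* 0.022 and *Serpinc1* -0.048. Leave-one-out fits gave -0.052 to 0.034 for *C2*, -0.12 to 0.032 for *C3*, -0.015 to 0.045 for *F2*, -0.11 to 0.081 for *Hc* and -0.017 to 0.030 for *Serpinc1*.

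No paired analysis was possible because the replicate numbers follow the order of the samples and the mouse numbers shared by the genotypes are only tags. With the title set as a block, which is no replicate block, *F11*, *C8b* and *Thbd* passed, as reported. In set 1 alone, *C5ar1* (-0.99, adjusted p = 0.034) and *Klkb1* (0.35, adjusted p = 0.0463) passed in limma. *C5ar1* reached the minimum mean of 1 FPKM in that fit only through the WT livers. In set 1 it was 1.05 to 1.94 FPKM in WT and 0.579 to 0.811 FPKM in *Gpr180*KO livers. Depth, known for single libraries only as a ratio between them, limits the members near or under 1 FPKM most. The causes of these changes were not tested.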

Other observations

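Fibrinogen and *C3* are made in larger amounts by hepatocytes during an acute-phase response, as are serum amyloids and related proteins. Of 16 acute-phase genes outside the members, limma called 2 lower in *Gpr180*KO livers, where 4.28% of all genes were, and 0 higher. At an unadjusted p under 0.05, 10 were lower, against 19.6% of all genes. The median log2 difference was -0.41. Of the 16 genes, 11 had a lower mean (68.8%, against 76.9% of all genes) and 5 a higher one, with differences up to 0.55. *Apcs*, serum amyloid P, had means of 87.3 FPKM in WT and 62.6 FPKM in *Gpr180*KO livers. *Lcn2*, lipocalin, had means of 63.0 and 14.8 FPKM. The fibrinogen chains had differences of 0.12 to 0.16 and *C3* of -0.06, none past the test. After median-of-ratios scaling 1 of the 16 genes was lower, with a median of -0.29. Whether the members differ from these genes was not tested.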
